A study of Mus musculus with 6 samples.

Results

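The regions described here are 3417 stretches of acetylated chromatin that lie inside protein-coding genes of embryonic mouse sensory neurons and hold no peak of open chromatin. They were taken from a list of 19924 peaks of histone H3 acetylated at lysine 27 (H3K27ac) on chromosomes 1 to 19, X and Y, of which they make up 17.2% (95% Wilson interval 16.6 to 17.7). A peak was kept when it was under 5000 bp wide, lay over 1 kb from every annotated end of the RefSeq protein-coding genes, had its midpoint inside such a gene and shared 0 bp with any peak of a second list, of open chromatin. They are called closed intragenic peaks below, where "closed" says only that no peak of the open-chromatin list overlaps. The 2785 peaks that meet the same rule but do overlap open chromatin are called open intragenic peaks, and 2307 closed peaks with the same width and distance limits lie between genes. The peaks were chosen by their measured width, position and lack of open-chromatin overlap, so these values are given as a description, and peaks of 1 list are not replicates, so no test was made.

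The study mapped chromatin in TrkC neurons, the lineage of proprioceptors that sense muscle stretch, from dorsal root ganglia of E11.5 embryos. The 6 samples are 2 of ATAC-seq, 2 of H3K27ac ChIP-seq and 2 of input DNA, each from 50000 sorted cells, and the input was not used here. All groups come from Runx3-BAC-GFP-CB6 transgenic mice, whose GFP-positive cells were fixed with paraformaldehyde and sorted, so every sample carries a BAC with Runx3 locus sequence and there is no non-transgenic group. The deposited values are 1 consensus list of peak positions per assay, without signal, score or counts. The depth per sample is therefore unknown, replicates cannot be compared, and the Wilson intervals given beside shares cover counting error only. Counts that need annotated starts or strand leave out chromosome 18, whose starts were not used here. The table of starts covers 17491 of the 21883 protein-coding genes. Starts of the genes missing from it could not be counted, so a peak near such a start counts as away from starts. A peak list also cannot tell a mark in few cells from a weak mark in all of them.

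Enhancers are stretches of DNA that raise transcription of a gene from a distance, and many lie in the introns of the gene they act on or of a neighbour. In an active enhancer, transcription factors displace nucleosomes, which leaves a site that the transposase of ATAC-seq can cut, while the flanking nucleosomes carry H3K27ac. The mark is carried by nucleosomes and the ATAC signal by the gap between them, so at 1 enhancer they are neighbours more than they coincide.

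The labelled cell type was first set against its defining genes. Pou4f1 and Isl1, homeobox factors of sensory neurons, and Etv1, a factor of proprioceptors, each had H3K27ac and ATAC at an annotated end and no closed intragenic peak. Runx3 had ATAC but no H3K27ac within 1 kb of an end, and Ntrk3 had neither, though an H3K27ac peak inside it lay 1.25 kb from one. Of 15 listed proprioceptor lineage genes, 3 had H3K27ac and 10 had ATAC at an end. Among all genes the shares were 49.3% and 60.4%. Runx3 held 3 H3K27ac peaks, of which 1 was closed (chr4:135159960-135161773, 1814 bp wide), with the nearest ATAC peak 852 bp away. The BAC adds copies of Runx3 sequence, and its part in the peaks there was not tested. Since GFP from that BAC chose the cells, acetylation at Runx3 is no finding here. Ntrk3, which encodes TrkC, held 4 H3K27ac peaks and 3 of them were closed. These were 581, 911 and 1072 bp wide and lay 131.9 kb, 128 bp and 20.5 kb from the nearest ATAC peak, so closed peaks of 1 gene ranged from next to an open site to far from any. Of the genes listed as markers of other cells in the tissue, none of 17 endothelial and mural genes and none of 20 muscle and mesenchyme genes hosted a closed peak. Of all genes 8.35% hosted one, and these lists hold only 3 and 0 genes over 100 kb. Their lack of hosts therefore does not tell whether such cells were present. Of 16 blood and immune genes, Cd4 and Ptprc (12.5%) held 1 closed peak each (263 and 258 bp). Of 22 motor neuron and spinal cord genes, Foxp1 and Lmx1b (9.09%) held 1 each (152 and 112 bp). All 4 of these peaks were narrow. Of 20 glia and neural crest genes 5 were hosts (25%), led by Nrg1 and Zeb2 with 7 closed peaks each. Nrg1 spans 1084 kb and Zeb2 134 kb. This list holds 4 genes over 100 kb, of which 3 were hosts, and the part of gene length was not tested. H3K27ac lay at an end of 11 of these 20 genes. It did so for 5 of the muscle, 0 of the endothelial, 2 of the blood and 3 of the motor neuron genes. ATAC lay at an end of 12, 12, 8, 3 and 12 genes in the same order of lists. Whether other cells were among those sorted was not tested.

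Closed intragenic peaks seldom sat on an annotated transcript start. A RefSeq table of the sequence around starts (build GRCm38.p6, 250 bases before to 50 after each start) was matched to the peaks by position. These counts leave out the chromosome named above. Peaks in other genes without a start in the table stay in them. A start lay inside 59 of 3296 closed intragenic peaks (1.79%, 1.39 to 2.302), against 807 of 2683 open intragenic peaks (30.1%, 28.4 to 31.8). Between genes it lay inside 44 of 2193 closed peaks (2.01%, 1.498 to 2.68). Of the 59, 47 held a start of a protein-coding gene and 12 only a start of a gene outside the protein-coding set.

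The starts inside closed intragenic peaks also differed in base composition from those in open ones. The 66 starts had a median of 6.5 CG dinucleotides in 300 bases and 50.3% G and C, against 22 CG and 63.3% at the 1049 starts in open intragenic peaks. Over all 32851 starts of the table the medians were 7 CG and 52.7%. The sequences of 6 of them follow, those of host genes that themselves stand in the functional lists used below, 1 for each gene, because they show the letters behind CG-poor and CG-rich starts. Only starts of the host gene itself were taken, 8 in all, and of the 2 starts in Rapgef2 and in Bmpr1b the first listed is given. They were chosen after their values were seen. CG-rich starts were not confined to them: 8 of the 66 had at least the 22 CG of the median start in open peaks. After Cacna1c came Cpeb1 with 33, then Lingo1 and Myo1c with 32 each. Each is read 5′ to 3′ on the strand of the gene from RefSeq GRCm38.p6, with every CG dinucleotide in capitals.
Celf2, chr2:7081253-7081552, minus strand: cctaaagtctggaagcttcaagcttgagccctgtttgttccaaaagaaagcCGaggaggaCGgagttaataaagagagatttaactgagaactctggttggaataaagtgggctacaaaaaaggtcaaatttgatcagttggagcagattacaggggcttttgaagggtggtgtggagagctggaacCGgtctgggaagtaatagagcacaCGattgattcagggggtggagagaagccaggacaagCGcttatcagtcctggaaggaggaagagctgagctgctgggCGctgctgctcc
Rapgef2, chr3:79145826-79146125, minus strand: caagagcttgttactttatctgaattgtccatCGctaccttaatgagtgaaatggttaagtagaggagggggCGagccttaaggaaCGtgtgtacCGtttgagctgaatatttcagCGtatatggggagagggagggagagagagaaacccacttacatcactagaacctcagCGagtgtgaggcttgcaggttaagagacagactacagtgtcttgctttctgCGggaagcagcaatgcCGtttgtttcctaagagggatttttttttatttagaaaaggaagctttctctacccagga
Bmpr1b, chr3:141931539-141931838, minus strand: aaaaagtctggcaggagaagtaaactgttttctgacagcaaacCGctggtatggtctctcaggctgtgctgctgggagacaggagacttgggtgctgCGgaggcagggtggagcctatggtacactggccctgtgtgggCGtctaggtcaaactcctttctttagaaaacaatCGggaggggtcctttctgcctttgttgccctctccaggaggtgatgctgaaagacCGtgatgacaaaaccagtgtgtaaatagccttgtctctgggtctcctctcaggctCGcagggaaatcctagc
Nfia, chr4:97581693-97581992, plus strand: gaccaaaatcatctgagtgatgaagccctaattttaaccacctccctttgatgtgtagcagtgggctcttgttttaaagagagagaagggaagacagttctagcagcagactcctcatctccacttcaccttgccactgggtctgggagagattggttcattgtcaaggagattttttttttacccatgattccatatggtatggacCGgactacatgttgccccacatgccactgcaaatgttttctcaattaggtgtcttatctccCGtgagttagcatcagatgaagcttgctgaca
Cacna1c, chr6:119108446-119108745, minus strand: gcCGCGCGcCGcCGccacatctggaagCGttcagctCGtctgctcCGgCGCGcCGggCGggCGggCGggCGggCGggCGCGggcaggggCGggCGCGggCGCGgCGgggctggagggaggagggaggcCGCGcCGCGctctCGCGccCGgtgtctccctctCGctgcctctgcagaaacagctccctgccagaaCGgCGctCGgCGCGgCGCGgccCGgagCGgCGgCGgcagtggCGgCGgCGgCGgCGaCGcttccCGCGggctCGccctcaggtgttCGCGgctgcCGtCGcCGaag
Cntn1, chr15:92161107-92161406, plus strand: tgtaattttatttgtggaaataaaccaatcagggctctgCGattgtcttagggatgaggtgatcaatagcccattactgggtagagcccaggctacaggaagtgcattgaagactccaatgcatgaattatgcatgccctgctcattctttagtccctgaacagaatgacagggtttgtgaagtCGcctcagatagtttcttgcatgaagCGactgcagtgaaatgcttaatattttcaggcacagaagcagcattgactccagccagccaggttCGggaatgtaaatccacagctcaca

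In 5 of these 6 the capitals are sparse, with 2 CG in Nfia, 4 in Cntn1, 6 in Celf2, 6 in Bmpr1b and 8 in Rapgef2. Cacna1c, which encodes the pore subunit of an L-type calcium channel, had 57 CG and 81.3% G and C, and its peak of 919 bp lay only 32 bp from an ATAC peak. The peak over the start of Cntn1, an adhesion molecule of axons, was 2415 bp wide and lay 109 kb from the nearest ATAC peak. The peaks at Rapgef2, an exchange factor for Rap GTPases, and Nfia, a nuclear factor I transcription factor, lay 35.2 and 35.6 kb from ATAC. Those at Celf2, a splicing regulator, and Bmpr1b, a BMP receptor, lay 4.65 and 4.78 kb from it. None of the 6 holds the RUNX motif TGTGGT on either strand. That motif was found at 12.1% of the 66 starts in closed peaks, 11.53% of the starts in open peaks and 16.8% of all starts. TATAAA was found on either strand at 12.1% of the starts in closed peaks, 4.77% of those in open peaks and 13.6% of all. The E-box CAGCTG, a palindrome, was found at 27.3% of the starts in closed peaks, 16.0% of those in open peaks and 16.3% of all. With 66 starts each share rests on few sequences (8, 8 and 18 in the closed peaks for the 3 motifs), and a match is a run of letters, not a bound site.

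How often a distal peak inside a gene lacked ATAC fell with its width. Of 6202 distal peaks under 5000 bp inside genes, 55.1% had no ATAC overlap (53.9 to 56.3), close to the 56.3% (54.7 to 57.8) of the 4101 between genes. At gene ends 457 of 9520 H3K27ac peaks lacked it (4.80%, 4.39 to 5.25). Inside genes the share was 77.5% (75.5 to 79.4) for peaks under 500 bp, 58.6% (56.3 to 60.8) from 500 bp to under 1000 bp, 42.6% (40.3 to 44.9) from 1000 bp to under 2000 bp and 26.3% (23.4 to 29.4) at 2000 bp or more. Between genes the widest class stood higher, at 36.7% (32.4 to 41.3), and the narrowest class was at 76.1% (73.7 to 78.3). A wide peak has more bases in which an ATAC peak can fall, and the part of that in this trend was not tested. Closed intragenic peaks had a median width of 631 bp (quartiles 351 and 1078, range 49 to 4829), open intragenic peaks 1174 bp (703 and 1848), and closed peaks between genes 572 bp (334 and 1062). Away from annotated starts by over 1 kb the medians inside genes were 635 bp for closed peaks and 1147 bp for open ones, so the gap in width stood there too. With only the wider 50% of H3K27ac peaks kept, 920 closed intragenic peaks were left in 643 host genes, with a median width of 1489 bp.

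**Figure D1:**
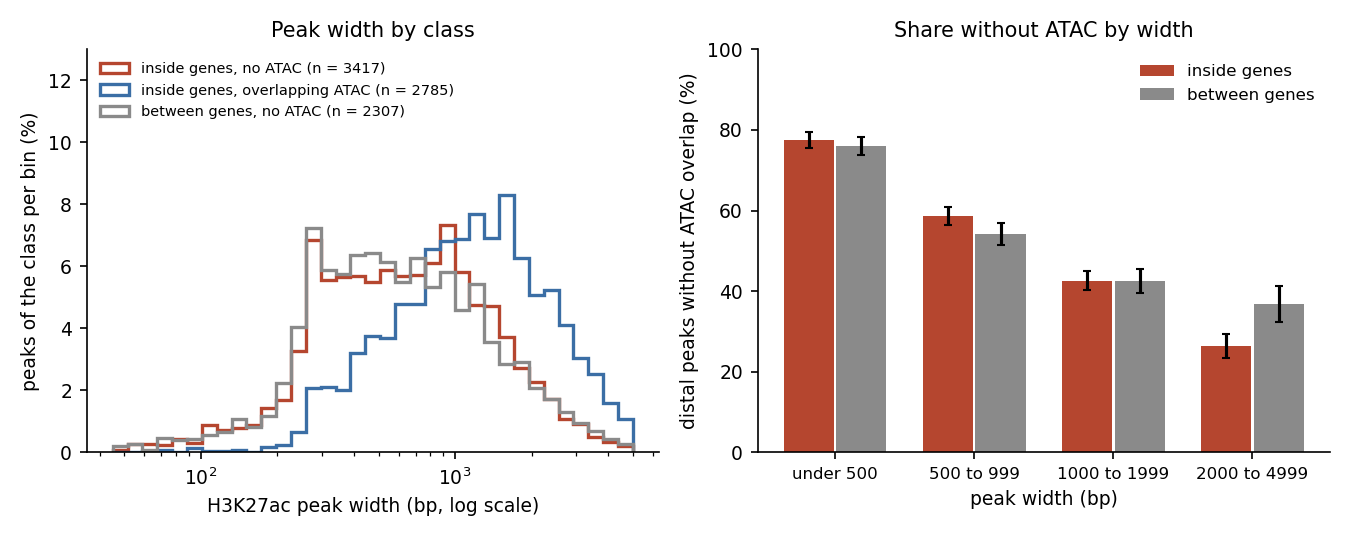
Left, percent of the peaks of each class by H3K27ac peak width in bp on a log axis, for closed intragenic (red), open intragenic (blue) and closed peaks between genes (grey); right, percent of distal peaks without ATAC by width class inside (red) and between (grey) genes, with 95% Wilson intervals. The 2 closed classes have nearly the same widths, and the share without ATAC falls to 26.3% inside genes and 36.7% between genes in the widest class.

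The widest closed peaks lay in genes of varied roles. The widest, 4829 bp, was in Clvs1 (chr4:9320604-9325432), which encodes the lipid-binding protein clavesin, with the nearest ATAC peak 12.0 kb away. The next, 4817 bp, was in Cbfb (chr8:105204203-105209019), 16.0 kb from ATAC. Cbfb encodes the partner subunit that RUNX proteins need for firm DNA binding. That gene spans only 47.3 kb, held 4 closed peaks of 857 to 4817 bp and no open intragenic one, and was acetylated and open at an end. The widest peak of Nrp1, a semaphorin co-receptor that guides axons, was 4709 bp (chr8:128414676-128419384), 3.80 kb from ATAC, and Nrp1 held 5 closed peaks and no open one. Fry (4756 bp), Syt16 (4459 bp), Tbc1d9 (4406 bp), Elmo1 (4375 bp), Zmiz1 (4286 bp) and Epb41 (4238 bp) were also among the 10 widest. Their gaps to ATAC ran from 1.75 kb in Epb41 to 88.9 kb in Syt16, so even peaks of over 4 kb could be far from an open site. At the narrow end the smallest were 49 bp, in Efna5, an ephrin, and in Tmtc2, which is named after its value was seen.

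Few closed peaks lay near the width limit, the widest inside it being the 4829 bp of Clvs1. Past it, Thsd7b had a peak of 5281 bp and Rere one of 5362 bp, and of 70 distal intragenic peaks of 5000 bp or more, 13 had no ATAC overlap. Nearest to a gene end inside the rule were peaks in Zfp33b (1005 bp away) and Sec61a2 (1022 bp), and just outside it peaks in Ptpru (993 bp) and Fam227b (966 bp). Peaks in Prkar1b, Klf15 and Arhgap23 touched an ATAC peak with 0 bp between. On the other side of that limit, 2 open intragenic peaks shared 1 bp with ATAC and 110 shared under 50 bp.

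Closed intragenic peaks typically lay several kb from open chromatin. The median gap to the nearest ATAC peak was 9.93 kb (quartiles 2.85 and 28.9 kb), against 15.5 kb (2.80 and 53.0 kb) for closed peaks between genes. It rests on which ATAC peaks are counted: with only the wider 50% of them the median for peaks then closed inside genes was 23.5 kb, and 18.5% had ATAC within 5 kb. An ATAC peak lay within 500 bp of 404 closed intragenic peaks (11.8%, 10.8 to 12.9), within 5 kb of 36% (34.4 to 37.6), within 10 kb of 50.1% (48.5 to 51.8) and within 100 kb of 94.5% (93.7 to 95.2). For closed peaks between genes the shares were 14.2% (12.9 to 15.7) within 500 bp and 42.5% (40.5 to 44.6) within 10 kb, so they were no less often adjacent to ATAC but more often remote. Counts by 100-bp step dropped steeply next to the peak, with 137 closed intragenic peaks at 0 to 100 bp, then 102, 72, 59 and 34 in the steps up to 500 bp. From there to 1000 bp each step held 12 to 22. Most of the 489 peaks within 1 kb of an ATAC peak were thus within 500 bp of it, and these 404 are called adjacent below.

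**Figure D2:**
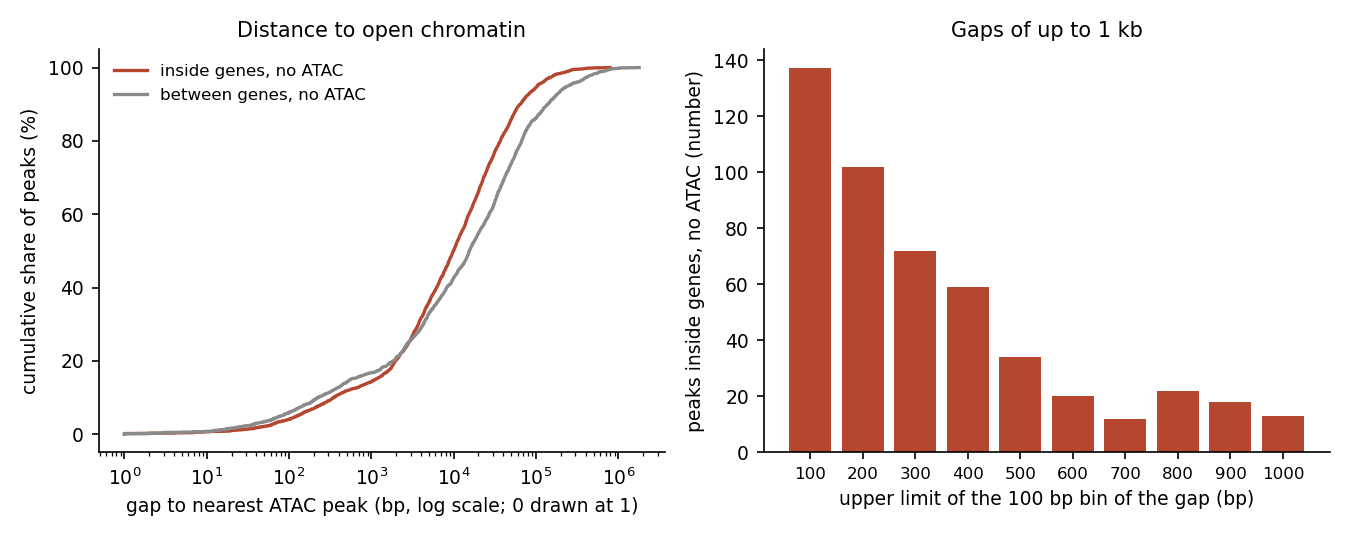
Left, cumulative percent of closed peaks inside (red) and between (grey) genes by gap to the nearest ATAC peak in bp on a log axis; right, number of closed intragenic peaks in 100-bp steps of gaps up to 1 kb. The curves cross between 1 and 5 kb, and the steps drop to 34 peaks in the fifth, against 137 in the first.

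The nearest ATAC peak was mostly in the same gene. It lay inside the host gene for 88.8% of closed intragenic peaks (87.7 to 89.8) and at a gene end, which may be that of the host, for 19.8% (18.5 to 21.2). It overlapped an H3K27ac peak of its own for 42.2% (40.6 to 43.9), against 39.6% (39.1 to 40.05) of all ATAC peaks. For the 404 adjacent closed peaks this count was 0. No pair of H3K27ac peaks lay closer than 1038 bp and the ATAC peaks beside them had a median width of 202.5 bp, which left little room for such overlap. Among closed peaks over 5 kb from ATAC, the nearest ATAC peak overlapped H3K27ac for 47.6% (45.6 to 49.7).

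Peaks at different distances from ATAC differed in width and in their hosts. The 404 within 500 bp had a median width of 482 bp, the 826 from there to 5000 bp 688 bp, the 1703 from there to 50000 bp 658 bp and the 484 farther away 629 bp. The adjacent ones were therefore the narrowest. The rule drops peaks that overlap ATAC, which a wide peak so near an ATAC peak would more easily do. The part of that in this difference was not tested. Of their host genes, 68.4% (63.6 to 72.9) had H3K27ac at an end, against 77.2% (73.9 to 80.3), 76.9% (74.2 to 79.3) and 57.2% (51.6 to 62.6) in the same order of rising distance. Hosts of the most remote peaks had a median span of 343 kb, and those of the other 3 distance classes 101.4 to 121 kb. Another closed intragenic peak lay within 10 kb of 24.0% of the adjacent, 30.3% and 31.1% of the middle and 20.04% of the most remote peaks.

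The 10 most remote peaks lay in very long genes, among them protocadherins and a contactin-associated protein. Agbl1, a carboxypeptidase gene of 895 kb, held 3 of them, the farthest 793 kb from ATAC (chr7:76777014-76778440, 1427 bp wide). It held 4 closed peaks, no ATAC peak inside and neither mark at an end. Cntnap5a, a contactin-associated protein, had one 711 kb away, Malrd1 one 567 kb away, Pcdh9 and Pcdh15, both protocadherins, ones 503 and 418 kb away, and Lingo2, a leucine-rich repeat protein of neurons, one 444 kb away. Thsd7b (404 kb) and Cnbd1 (397 kb) completed them.

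Closed intragenic peaks had close acetylated neighbours more often than the other classes. Another H3K27ac peak of any kind lay within 5 kb of 33.7% of them (32.1 to 35.3), against 21.0% (19.5 to 22.6) of open intragenic peaks and 24.3% (22.6 to 26.1) of closed peaks between genes. Within 10 kb the shares were 46.9% (45.3 to 48.6), 35.3% (33.5 to 37.1) and 32.6% (30.8 to 34.6). An open H3K27ac peak lay within 10 kb of 26.0% (24.5 to 27.5) of closed and 23.3% (21.8 to 24.9) of open intragenic peaks. Another closed intragenic peak lay within 10 kb of 28.5% (27 to 30.01). The authors' joining of peaks, which is not given in the sources used here, could set how often one acetylated stretch is listed as several, and its part was not tested.

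The 3417 peaks lay in 1828 host genes, 8.35% of the 21883 protein-coding genes, 3397 of them in 1 gene span and 20 in a pair of overlapping spans. Of the hosts, 1150 held 1 closed peak, 678 at least 2, 128 at least 5 and 19 at least 10. Those 128 genes held 925 of the peaks. Hosts were long, with a median span of 108 kb (quartiles 52.1 and 222 kb), against 73.8 kb for the 2097 hosts of open intragenic peaks and 17.2 kb for all genes. A long gene offers more room, and among genes over 100 kb, 980 of 2428 (40.4%) held a closed peak. Both kinds of intragenic peak stood in 706 hosts, while 1122 held closed ones only. In 122 hosts no ATAC peak lay inside the gene, and in 41 none lay inside or at an end.

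The 20 genes with most closed peaks were ranked by number and then by summed width, which decides among 12 genes tied at 9, the count of the last. Among these 20 genes, regulators of transcription and splicing, guidance and adhesion receptors, and signalling scaffolds stood side by side. Thsd7b, a thrombospondin-domain gene of 946 kb, and Rbms3, an RNA-binding protein gene of 1057 kb, held 17 each, beside 1 and 3 open intragenic peaks. Bach2, a transcription repressor, held 16 beside 5 open, and Ebf1, an early B-cell factor that is also made in sensory neurons, 15 beside 6 open. The 15 peaks of Ebf1 were 112 to 3783 bp wide and 132 bp to 18.98 kb from ATAC, so none was remote. Nfia held 14 beside 7 open and Zfp536, a zinc finger repressor, 10 beside 1 open. Robo1, the Slit receptor that keeps axons from crossing the midline, held 14 in 1020 kb beside 5 open, at 6.80 to 251 kb from ATAC. Tenm4, a teneurin adhesion protein, held 13 beside 10 open, and Sdk1, a sidekick adhesion protein, 11 beside 2 open.

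Several of these genes had no open intragenic peak at all. Exoc4, a subunit of the exocyst that tethers vesicles, held 12 closed peaks and 0 open, Cacna2d1, the calcium channel subunit that binds gabapentin, 11 and 0, and Cadm1, an adhesion molecule, 10 and 0. All 3 were acetylated and open at an end. The closed peaks of Cadm1 were 184 to 2023 bp wide and lay a median of 42.1 kb from ATAC. Tnik, a protein kinase, held 12 beside 3 open. Among splicing regulators Rbfox1 held 12 beside 1 open and Celf2 11 beside 2 open. Grip1, a scaffold of glutamate receptors, held 11 beside 3, Clvs1 10 beside 2, Utrn (utrophin) 10 beside 5 and Tacc2, a centrosomal coiled-coil protein, 9 beside 5. Gse1, tied with Tacc2 but with a smaller summed width, held 9 beside 16 open, and is named after its values were seen. Ranbp17, a nuclear transport receptor, held 10 beside 2 open, and its neighbour is Tlx3, a homeobox factor of sensory neurons, 8.21 kb past its end. Which gene a peak acts on was not measured here.

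**Figure D3:**
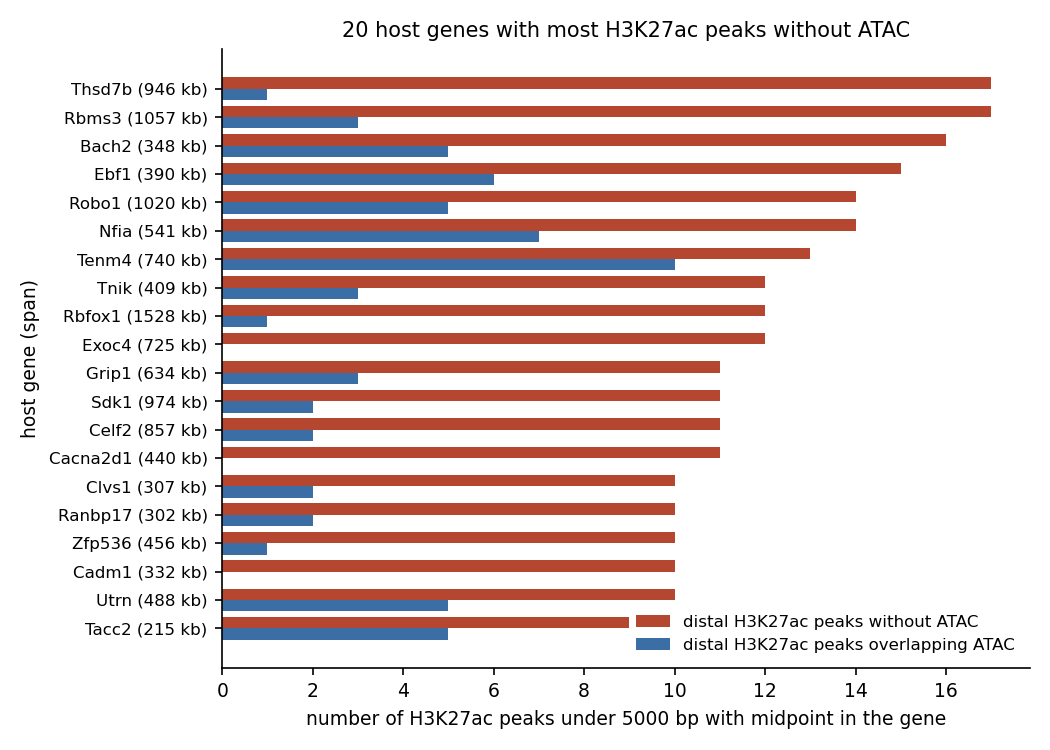
Number of closed (red) and open (blue) intragenic H3K27ac peaks under 5000 bp in the 20 host genes with most closed ones, with the gene's span in kb. Closed peaks outnumber open ones in each, from 17 and 1 in Thsd7b to 13 and 10 in Tenm4, in a set chosen by closed peaks; Gse1, tied with the last at 9, is not drawn and holds 16 open.

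Counted per length, shorter genes came to the front. Among hosts over 50 kb, Basp1, a growth-cone membrane protein, was densest, with 7 closed peaks in 50.5 kb (13.9 per 100 kb), of 429 to 3365 bp and 1.49 to 15.4 kb from ATAC. B4galt5, a galactosyltransferase, had 4 (7.88 per 100 kb), Fam171b 5 (7.05) and Etfa, a mitochondrial flavoprotein, 4 (6.92). Etv5, an ETS factor that responds to growth factors, had 4 (6.87), Ebf3 8 (6.20) and Elavl4, a neuronal RNA-binding protein that steadies mRNAs, 9 (6.07). Between Etv5 and Ebf3 stood Spsb4 (6.68), Susd6 (6.64) and Cerkl (6.22), and between Ebf3 and Elavl4 stood Fam171a1 (6.16). These were chosen after their values were seen.

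Each gene group below was read against the 8.35% of all genes and the 40.4% of genes over 100 kb that hosted a closed peak. All 550 entries of the 19 lists were found in the annotation, 1 by a synonym, and a gene may stand in several lists. Chromatin and transcription cofactors had the most, with 33 hosts of 52 genes and 132 closed peaks, and 25 hosts among their 33 genes over 100 kb. Open intragenic peaks stood in 37 of these 52 genes. Hosts with most closed peaks in the list were Nfia (14), Zfp536 (10), Zfp521 (9), a zinc finger factor of progenitors, and Auts2 (8), a chromatin regulator of neurons. Zfp521 held no open intragenic peak, and Auts2 held 7. By number of hosts, small GTPase regulators and kinases followed with 23 of 42 and 69 closed peaks, all 23 among the 38 genes over 100 kb. They were led by Prkce (9), a protein kinase C, Trio (7) and Dock4 (7), both exchange factors of Rac, and Srgap3 (5), a Slit-Robo GTPase-activating protein.

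Neuronal RNA-binding proteins had 10 hosts of 20 and 58 closed peaks, with 9 hosts among 12 long genes (over 100 kb). Behind Rbfox1 and Celf2 stood Elavl4 (9) and Rbfox3 (8), the antigen NeuN of mature neurons. Cell adhesion genes had 21 hosts of 43 and 71 closed peaks, beside 16 open intragenic peaks in 11 genes. Here Cadm1 (10), Ncam1 (9), Dscam (6) and Lsamp (6) led, and all 6 peaks of Lsamp were over 104 kb from ATAC. Of their 37 genes over 100 kb 19 were hosts. Axon guidance genes had 19 hosts of 44 and 55 closed peaks, with 18 hosts among 30 long genes. Next to Robo1 these were Plxna4 (6), a semaphorin receptor, Nrp1 (5) and Efna5 (4).

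Ion channel genes had 19 hosts of 40 with 44 closed peaks (18 hosts of 34 long genes), led by Cacna2d1 (11), then Cacna1e (4), a calcium channel, Kcnq5 (4), a potassium channel, and Scn9a (4), a sodium channel of sensory neurons. Synaptic genes had 18 hosts of 42 with 40 closed peaks, and 11 hosts of 27 long genes, about the share of all long genes. Grip1 (11) and Nrxn3 (7), a neurexin, led them. Microtubule and growth cone genes had 15 hosts of 31 and 31 closed peaks, with 10 hosts among 13 genes over 100 kb. Dst (6), a spectraplakin, led, while Ank3, Kif1b and Gap43 held 3 each. Open intragenic peaks stood in 20 of the GTPase regulators and kinases, 13 of the RNA-binding proteins and 20 of the axon guidance genes. They stood in 15 of the ion channel, 15 of the synaptic and 14 of the microtubule genes, and in 2097 of all 21883 genes. Hosting in these lists was thus not particular to closed peaks.

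Of 30 sensory transcription factors, 9 were hosts, with 38 closed peaks, and 5 of their 7 genes over 100 kb were. The list held 19 open intragenic peaks in 7 genes. Of the 38, 31 were in Ebf1 (15), Ebf3 (8), Klf7 (5), a Krüppel-like factor that keeps TrkA expressed, and Ebf2 (3), while St18, Eya2, Hmx1, Prrxl1 and Prdm12 held 1 or 2 each. The list's median span was 11.8 kb. Touch neuron genes had 7 hosts of 14 and 15 closed peaks (6 hosts of 7 long genes), led by Meis2 (4) and Gfra1 (4), a receptor of the GDNF family, and nociceptor genes 3 hosts of 15 with 1 peak each (2 hosts of 2 long genes). Proprioceptor lineage genes had 4 hosts of 15 with 7 closed peaks (Ntrk3 3, Esrrg 2, Ntng1 1 and Runx3 1), 6 open ones, and 3 hosts among 4 long genes. Neurotrophin signalling genes had 10 hosts of 24 and 25 closed peaks (8 hosts of 10 long genes), led by Magi2 (5) and Gab1 (4), an adaptor of receptor kinases. In the Notch, Wnt and BMP pathways 13 of 43 genes were hosts but with only 15 closed peaks, at most 2 in a gene, and 5 hosts among 8 long genes.

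Host genes of closed peaks often carried the mark at an end as well. H3K27ac lay within 1 kb of an end in 72.2% of them (70.1 to 74.2), against 52.3% (50.1 to 54.4) of the hosts of open intragenic peaks and 49.3% of all genes. For ATAC the shares were 81.5% (79.6 to 83.2), 62.1% (60.0 to 64.2) and 60.4%. Among hosts of closed peaks only, 75.4% (72.8 to 77.8) had H3K27ac at an end, among hosts of both kinds 67.0% (63.4 to 70.4) and among hosts of open peaks only 44.8% (42.2 to 47.4). By span the share for hosts of closed peaks was 63.4% (54.6 to 71.4) up to 20 kb, 77.8% (74.6 to 80.7) from 20 to 100 kb, 71.9% (68.8 to 74.9) from 100 to 500 kb and 50.8% (42.3 to 59.1) above. In genes without a closed peak it was 40.6% (39.7 to 41.5), 56.7% (55.6 to 57.9), 55.5% (52.8 to 58.1) and 45.7% (36.04 to 55.8) in the same classes. The excess was thus seen up to 500 kb, while above it the intervals overlap.

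The difference between hosts of closed and of open peaks was smaller away from annotated starts. When peaks within 1 kb of any annotated start were left out, 74.0% (71.6 to 76.3) of the hosts of the remaining 3150 closed peaks and 65.5% (62.3 to 68.6) of the hosts of the remaining 1690 open peaks had H3K27ac at an end, against 49.6% of the 17491 genes with starts in the table. When a gene's own annotated starts counted as well as its ends, the shares were 83.1% (81.0 to 85.0), 77.7% (74.8 to 80.3) and 53.5% (52.8 to 54.2). The difference between closed and open hosts was smaller under this count, and both stood above all genes. This comparison was added after the values of the first were seen.

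The same held per length of gene. Over 1 kb from annotated starts, genes acetylated at an end or start held 3.97 closed peaks per Mb of span, against 1.28 per Mb in genes not acetylated there, a ratio of 3.11. For open intragenic peaks the densities were 1.85 and 0.905 per Mb, a ratio of 2.04. By rising span class, up to 20, 100, 500 kb and above, the ratio was 2.86, 3.35, 2.88 and 2.44 for closed peaks and 2.13, 1.598, 2.43 and 1.82 for open ones. It was above 1 in each class for both kinds. With all peaks kept and only gene ends counted, closed peaks were again denser in acetylated genes, at 4.17 against 2.04 per Mb, and in each span class. Open peaks then stood at 2.62 per Mb in acetylated genes against 2.88 per Mb in the others, and were less dense in acetylated genes in 3 of the 4 span classes. The direction for open peaks therefore depended on whether peaks near annotated starts were kept and starts were counted with ends, while that for closed peaks did not.

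**Figure D4:**
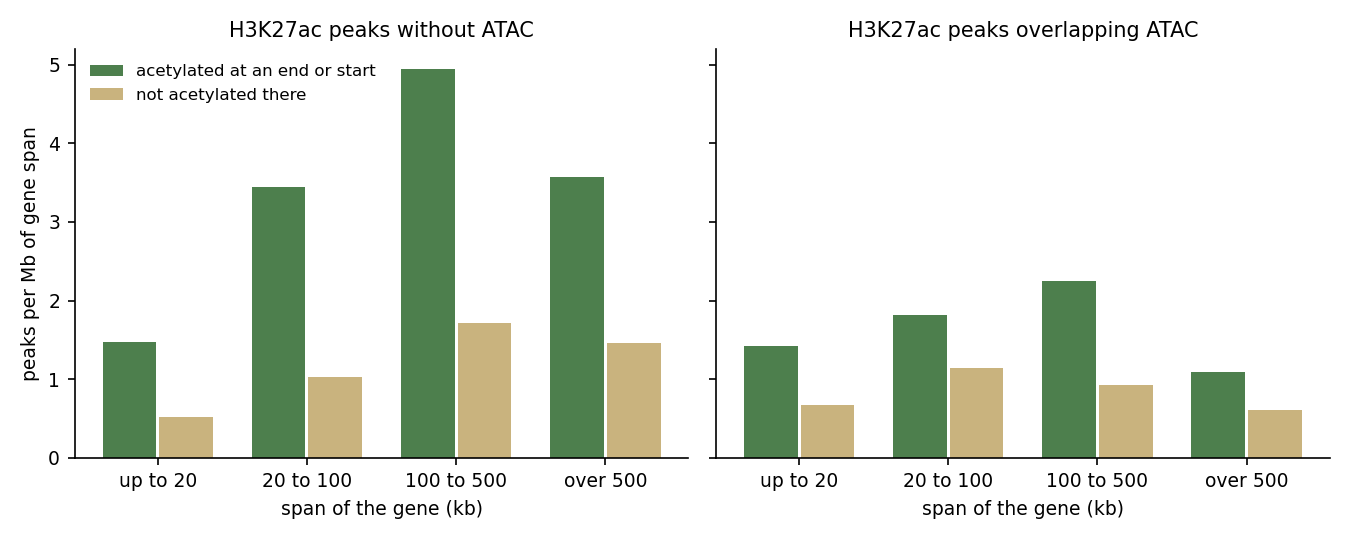
Closed (left) and open (right) intragenic H3K27ac peaks per Mb of gene span, over 1 kb from annotated starts, in genes with (green) and without (tan) H3K27ac at an end or annotated start, by span class in kb. Closed peaks are denser in acetylated genes in each class, with the highest density, 4.95 per Mb, in acetylated genes of 100 to 500 kb.

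Along their genes closed peaks leaned slightly to the 5′ side. Strand was known for 1428 of the 1828 host genes, from the table of starts, and the others were left out. Of 2682 pairs of closed peak and host, 55.7% (53.8 to 57.6) were nearer to the 5′ end, against 62.6% (60.6 to 64.6) of 2242 pairs for open peaks. The median distance from the 5′ end was 60.8 kb for closed and 27.7 kb for open intragenic peaks. Over 1 kb from annotated starts the shares nearer to the 5′ end became 55.1% (53.1 to 57.0) and 52.8% (50.1 to 55.6). The medians over all spans became 62.5 and 53.6 kb, so the classes were close once starts were set aside. Within 10 kb of the 5′ end lay 9.91% (8.81 to 11.1) of the closed and 13.1% (11.3 to 15.0) of the open ones. In genes over 500 kb, with peaks near starts kept, neither kind leaned to the 5′ side. Nearer to the 5′ end were 46.9% (42.3 to 51.6) of the closed and 42.5% (35.7 to 49.5) of the open peaks.

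**Figure D5:**
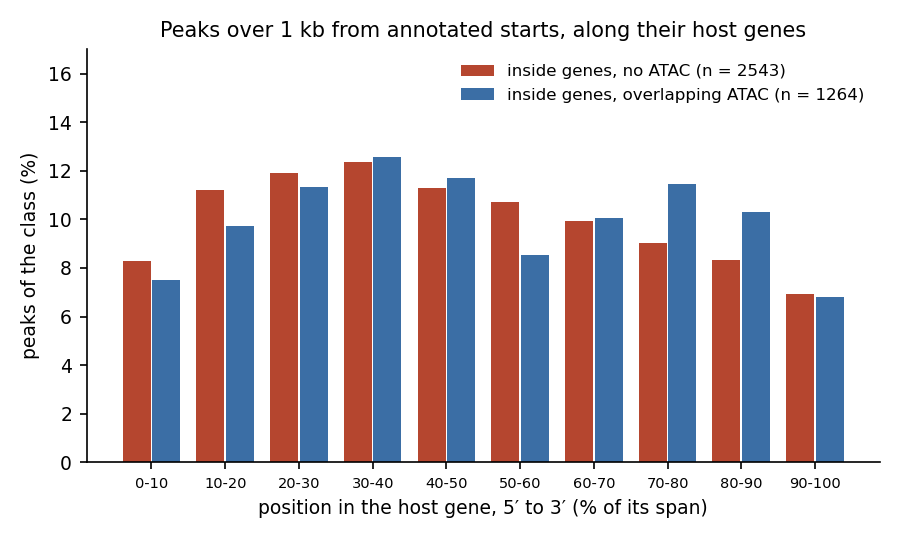
Percent of closed (red) and open (blue) intragenic peaks over 1 kb from annotated starts in each 10% of the host gene's span, from the 5′ to the 3′ end. Closed peaks are spread over the whole gene, from 6.92% in the last step to 12.3% in the fourth.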

How the data were processed

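Open chromatin (ATAC-seq) and H3K27ac (ChIP-seq) were measured in 2 samples each. The authors deposited 1 consensus list of peak positions in bp per assay, a kind of value with no signal or score. Per the submitters' processing notes the tools were cutadapt 1.18, Bowtie2 2.3.5.1, MACS2 and bedtools, on mm10. How the consensus was formed, and its thresholds, are not given in the sources used here, and both set how many peaks there are, how wide they are and whether close ones are joined.

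Here, the 19924 of 19928 H3K27ac and 43652 of 43739 ATAC peaks that lie on the autosomes, X or Y were compared by position, counted from 1, with 21883 RefSeq protein-coding gene spans of GRCm38. Overlap means 1 shared bp, and a peak lies at a gene end when it comes within 1 kb of the first or last annotated base. Strand and annotated starts came from a RefSeq GRCm38.p6 table of promoter sequences, with no starts on chromosome 18 used here. Peak sequences were planned but not used here. Shares have 95% Wilson intervals from scipy 1.17.1, and tables were handled with pandas 2.3.3 in Python 3.11.15. The interval functions were tested on simulated intervals.

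The regions, gene lists and comparisons were chosen with earlier results of these data known. Genes were named by rule: Runx3 and Ntrk3, the 20 hosts with most closed peaks, hosts of the 10 widest and 10 most remote, peaks at each limit, and up to 4 hosts per list. Genes outside it are named as chosen later or as list exceptions. A gene that the rule takes is not reported here.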

Additional observations from a re-analysis of the deposited data

How the results depend on the processing

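Of 112 recomputed values 83 moved by less than their interval or, for counts, by less than 1.5 times, and 29 moved further. The 83 include the 11 results recomputed with the whole peak required to lie inside the gene. The 1 kb distance from gene ends already ensures that, so this setting could change nothing. The share of distal intragenic peaks without ATAC, 55.1%, was 53.2% with a gene-end window of 0.5 kb and 57.7% with 2.5 kb, 59.5% with a width limit of 2000 bp, and 57.2% with the ends of all annotated genes. It was 48.6% when no ATAC peak within 500 bp was allowed, 66.6% with the wider 50% of ATAC peaks and 36.9% with the wider 50% of H3K27ac peaks. The host share with H3K27ac at an end was 67.3% at 0.5 kb (47.2% of all genes) and 76.4% at 2.5 kb (52.1%), and that with ATAC 76.2% and 88.2%. A width limit of 2000 bp gave a median width of 586 bp. Without ATAC within 500 bp the median width was 664 bp, the gap 12.97 kb, the share within 5 kb of ATAC 27.4% and the host span 114 kb. With the wider 50% of ATAC peaks these were 695 bp, 23.5 kb and 18.5%, with 21.1% within 10 kb of an open H3K27ac peak and ATAC at an end of 74.6% of hosts. With the wider 50% of H3K27ac peaks there were 920 closed peaks of 1489 bp in 643 hosts of 141 kb, 33.0% within 5 kb of ATAC, 22.4% within 10 kb of an open H3K27ac peak, and 55.2% of hosts (32.5% of all genes) with H3K27ac at an end. Those shifts follow from which peaks each setting keeps. Chosen after seeing the data, leaving out peaks near annotated starts gave 65.5% for hosts of open peaks, against 52.3%.

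No paired analysis was possible because the lists hold no values per replicate. For the same reason no replicate was left out. Depth is unknown, so closed peaks beside an ATAC site too weak for the list and those beside none cannot be told apart.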

Other observations

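Chromosome X held few closed intragenic peaks. Of its 73 distal H3K27ac peaks under 5000 bp inside genes, 25 had no ATAC overlap (34.2%, 95% Wilson interval 24.4 to 45.7), while on the autosomes the share ran from 47.9% (43.1 to 52.8) on chromosome 7 to 60.9% (56.7 to 65.0) on chromosome 4. The samples' sex is not given in the labels used here, and nothing was tested.

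ATAC peaks nearest to the 404 adjacent closed peaks had a median width of 202.5 bp, against 217 bp for all ATAC peaks.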
